A study of Mus musculus with 8 samples.

Results

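The 10 genes of fast skeletal muscle fibres were described across CD45+/Sca1+ cell samples: Tnnc2, Tnni2, Tnnt3, Mylpf, Myl1, Acta1, Actn3, Atp2a1, Ckm and Pvalb. They were chosen by name, with every probe set that the array annotation assigns to each of them alone. The rule gave 12 probe sets of 22690 on the array and 10 genes of 12393 named ones, with 3 probe sets for Tnni2 and 1 for each other gene. All samples were cells that carry both CD45, found on the surface of blood cell lineages, and Sca1, found on many progenitors and on some mature cells of mice, taken from C57BL/6 mice aged 6 to 8 weeks. The 8 arrays formed 4 groups of 2. One group was muscle after cardiotoxin, a venom component that lyses fibres, in mice that had also received a bone marrow transplant (transplanted injured muscle). The others were cardiotoxin-injured muscle without a transplant (untransplanted injured muscle), uninjured muscle, and bone marrow. The labels do not give the muscle used, the time after injury, the number of animals behind a sample, or whether the cells of transplanted mice were the donor's or the host's. P-values therefore measure the spread between arrays, which may be technical.

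Skeletal muscle fibres are multinucleate cells packed with sarcomeres, in which myosin pulls on actin filaments when calcium binds the troponin complex. Fast fibres use their own versions of troponin, myosin light chain, alpha-actinin and calcium pump, and many hold parvalbumin, a soluble calcium buffer. After cardiotoxin, fibres die, blood-derived cells enter, and satellite cells, the stem cells of muscle, rebuild fibres. Fibres do not carry CD45, so these genes are no markers of the sorted population.

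Intensities are the deposited linear values, 1 per probe set and array, already scaled to the same trimmed mean on each array. Median intensity ran from 56.3 to 75.7 over the 8 arrays. Ptprc, the gene of CD45, was high in each group, at 5924 ± 1018 in transplanted injured muscle, 6486 ± 721 in untransplanted injured muscle, 5700 ± 1098 in uninjured muscle and 5367 ± 509 in bone marrow (SD, n = 2). Ly6a, which encodes Sca1, was not analysed here. RNA controls differed with injury: the Gapdh signal ratio of 3' to 5' probe sets was 0.882 and 0.868 in transplanted injured, 0.833 and 0.808 in untransplanted injured, 46.9 and 13.6 in uninjured muscle, and 24.4 and 10.7 in bone marrow samples. The part of this difference in the results on injured against other samples was not tested.

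Of the 10 genes, Tnnc2, Tnnt3, Mylpf, Myl1, Acta1 and Pvalb were higher in uninjured muscle than in bone marrow, and Tnni2, Actn3, Atp2a1 and Ckm did not pass that test. Against uninjured muscle, 10 of 10 genes fell in transplanted injured muscle and 6 of 10 in untransplanted injured muscle, by limma at an adjusted p under 0.05. Over all 9506 genes tested the share called lower was 20.8% in the first and 15.1% in the second of these comparisons, which share the uninjured arrays; the share called higher was 10.5% and 8.77%. Uninjured muscle against bone marrow had 6 of 10 higher and none lower, with 0 lower also at an unadjusted p under 0.05, where 5.85% of all genes were called higher and 1.4% lower. The uninjured arrays agreed least with each other (r of 0.837 over probe sets, against 0.929 to 0.957 in the other groups), and this background rests on 1 of them. Over the 16289 probe sets 787 were called higher and 204 lower, and 1257 and 1864 without uninjured muscle replicate 2, where the 10 genes still had 6 higher and 0 lower (0 lower also at an unadjusted p under 0.05). Transplanted against untransplanted injured muscle had 3 of 10 lower, where 0.274% of all genes, 26 in number, were called lower and 0.0421%, 4 in number, higher. Counting genes whose groups do not overlap, without a test, 10 of 10 lay lower in transplanted injured muscle and 8 of 10 in untransplanted injured muscle than in uninjured muscle, where 42.6% and 40.1% of all genes did. Uninjured muscle lay above bone marrow without overlap for 9 of 10 genes and below it for 0, where 23.7% and 22% of all genes did.

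The median log2 fold change of the 10 genes was -3.69 for transplanted injured over uninjured muscle and -2.09 for untransplanted injured over uninjured muscle, against medians of -0.31 and -0.25 over all genes. It was 3.77 for uninjured muscle over bone marrow and -1.74 for transplanted over untransplanted injured muscle, against -0.06 and 0.00 over all genes. With every value under 38.4, the 40th percentile of all values, set to it, these 4 medians were -2.88, -2.09, 3.05 and -0.79 for the 10 genes. The value 38.4 is also the filter used: a probe set was tested if at least 2 arrays reached it, which all 10 genes passed. It is no detection limit.

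**Figure D1:**
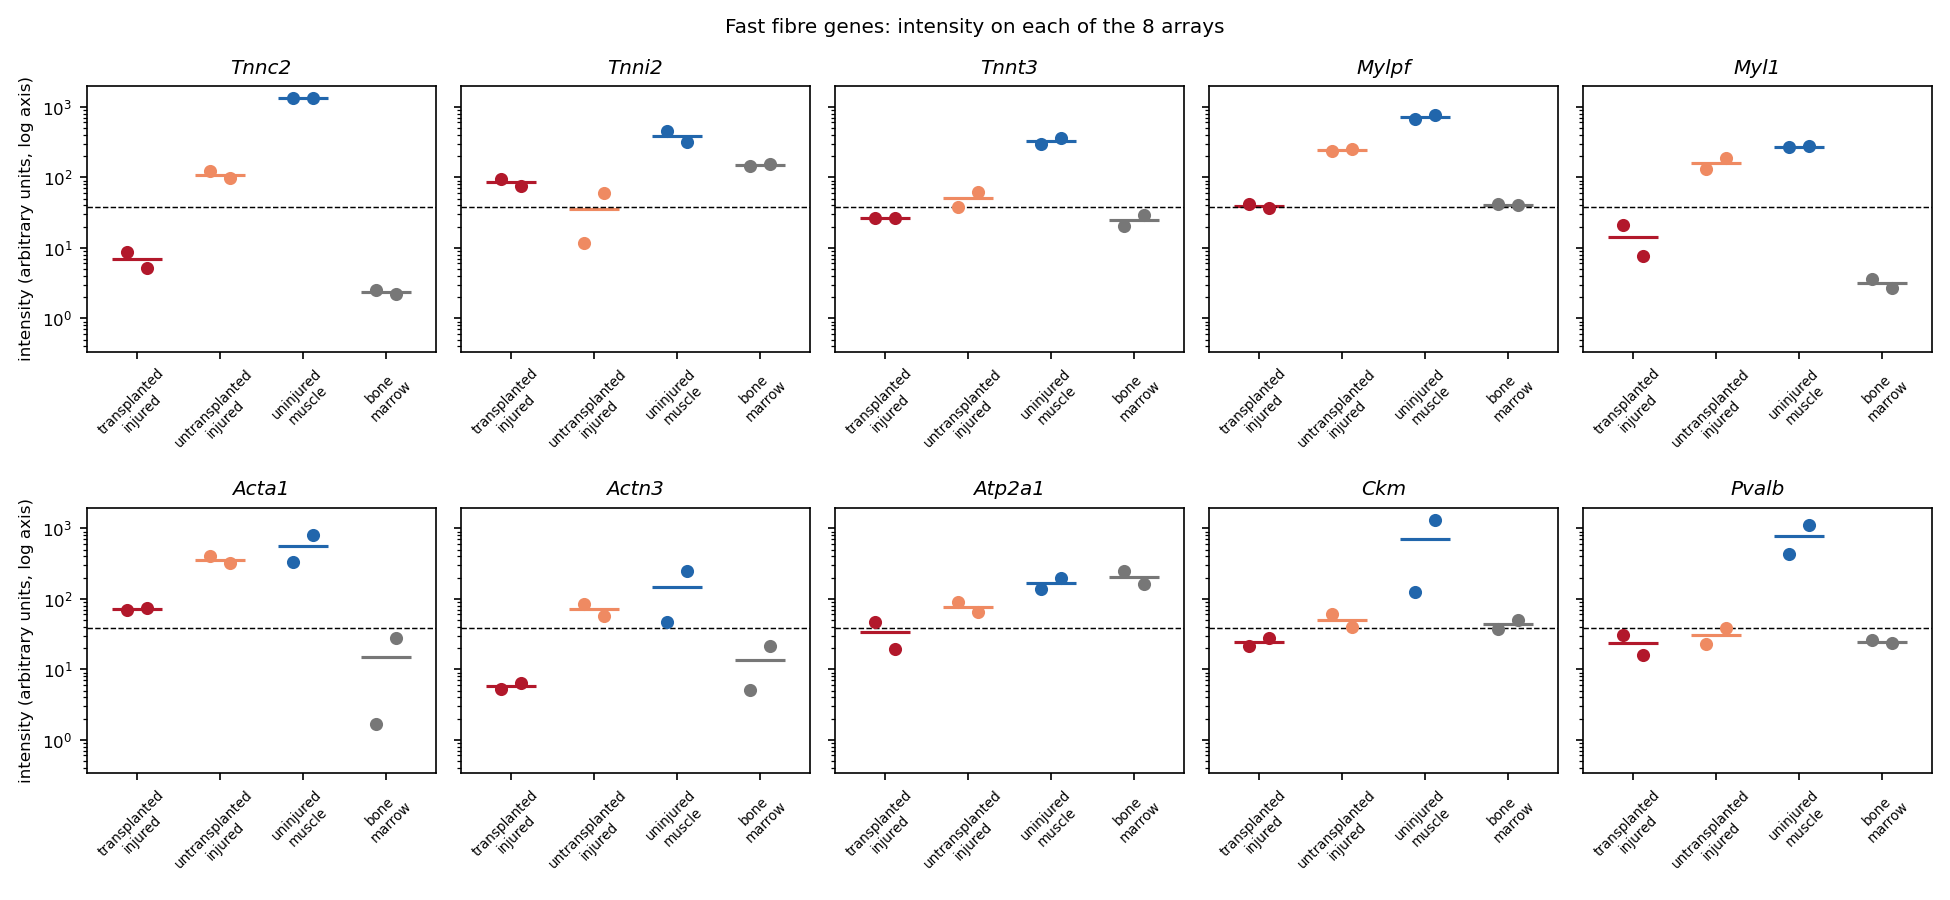
Intensity of each gene on each of the 8 arrays (points; arbitrary units, log axis) with the mean of the 2 arrays of a group (line); the dashed line marks the filter value of 38.4. Uninjured muscle points lie highest in each panel except Atp2a1, where bone marrow overlaps them, and Acta1 and Actn3, where at least 1 untransplanted injured array exceeds the lower uninjured one.

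Among the troponins, Tnnc2, the calcium-binding subunit of fast fibres, gave the widest separation. Its intensity was 8.78 and 5.13 in transplanted injured, 121 and 96.6 in untransplanted injured, 1329 and 1320 in uninjured muscle, and 2.49 and 2.18 in bone marrow samples. The groups did not overlap, and uninjured muscle was far above the rest. With both bone marrow arrays under 38.4, the difference of uninjured muscle over bone marrow is given as at least 31.4-fold, computed against 38.4 with the pseudocount of 4 added to both (adjusted p = 5.49e-05). Transplanted injured muscle was at least 31.4-fold lower than uninjured muscle (adjusted p = 0.000135), while untransplanted injured muscle fell by 3.56 on the log2 scale (SE 0.38, adjusted p = 0.00139). Between the injured groups the transplanted samples were at least 2.65-fold lower (adjusted p = 0.0291), a call that was lost with values under 38.4 set to it (adjusted p = 0.102).

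Tnnt3, the tropomyosin-binding troponin T of fast fibres, had intensities of 26.7 and 26.1 in transplanted injured, 37.7 and 62.9 in untransplanted injured, 298 and 366 in uninjured muscle, and 20.5 and 29.5 in bone marrow samples. Only uninjured muscle stood clear of the filter value on both arrays. It was at least 7.89-fold higher than bone marrow (adjusted p = 0.00192). Levels in transplanted injured muscle were at least 7.89-fold below uninjured muscle (adjusted p = 0.00114), and untransplanted injured muscle fell by 2.66 on the log2 scale (SE 0.41, adjusted p = 0.00416). The injured groups did not differ by the test (adjusted p = 0.688).

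Tnni2, the inhibitory troponin I of fast fibres, was measured by 3 probe sets that disagreed. The one with the highest mean, which stands for the gene here, gave 95.1 and 76.1 in transplanted injured, 11.5 and 59.97 in untransplanted injured, 448 and 313 in uninjured muscle, and 146 and 157 in bone marrow samples. It is of a kind whose probes can also match other transcripts. The second gave 100 and 65.1 in transplanted injured, 97.7 and 75.1 in untransplanted injured, 285 and 408 in uninjured muscle, and 69.4 and 173 in bone marrow. In both, uninjured muscle was highest, yet neither passed the test against bone marrow (adjusted p = 0.306 and 0.113). Against uninjured muscle the first gave a log2 fold change of -2.09 in transplanted injured muscle (SE 0.61, adjusted p = 0.0339) and of -3.59 in untransplanted injured muscle (SE 0.61, adjusted p = 0.00606), and the second fell in both too (adjusted p = 0.0166 and 0.0236). The lower level in untransplanted injured muscle than in bone marrow, called for the first (log2 fold change -2.30, SE 0.61, adjusted p = 0.024), was not called for the second (-0.34, SE 0.49, adjusted p = 0.623). Without untransplanted injured replicate 1, the array at 11.5, the first gave -1.28 against bone marrow (adjusted p = 0.116) and -2.56 against uninjured muscle (adjusted p = 0.0306). Its fall in transplanted injured muscle was not called without either transplanted array, uninjured muscle replicate 1 or either bone marrow array, nor with array weights (adjusted p 0.0559 to 0.153). The third probe set was under the filter value on all 8 arrays, at 1.73 to 6.06.

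Both myosin light chains stayed well above bone marrow in untransplanted injured samples. Mylpf, the regulatory light chain of fast fibres, had intensities of 41.5 and 36.6 in transplanted injured, 239 and 251 in untransplanted injured, 661 and 765 in uninjured muscle, and 41.6 and 40.4 in bone marrow samples. Transplanted injured arrays lay at the bone marrow level, with untransplanted injured arrays between them and uninjured muscle. The log2 fold change was 3.99 for uninjured muscle over bone marrow (SE 0.31, adjusted p = 0.00033), -4.06 for transplanted injured over uninjured muscle (SE 0.31, adjusted p = 0.000358) and -1.52 for untransplanted injured over uninjured muscle (SE 0.31, adjusted p = 0.0112). Transplanted over untransplanted injured muscle gave -2.54 (SE 0.31, adjusted p = 0.0325). The difference of untransplanted injured from uninjured muscle was not called without either untransplanted injured array (adjusted p = 0.0817 and 0.0711).

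Myl1, the essential light chain of fast fibres, had intensities of 20.8 and 7.73 in transplanted injured, 133 and 186 in untransplanted injured, 267 and 276 in uninjured muscle, and 3.62 and 2.67 in bone marrow samples. The groups did not overlap. Untransplanted injured over uninjured muscle gave a log2 fold change of -0.78 that did not pass the test (SE 0.47, adjusted p = 0.248). Myl1 in transplanted injured muscle was at least 6.5-fold lower than uninjured muscle (adjusted p = 0.00115) and at least 3.8-fold lower than untransplanted injured muscle (adjusted p = 0.0499). Uninjured muscle was at least 6.5-fold higher than bone marrow (adjusted p = 0.000705).

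Acta1, the actin of skeletal thin filaments, had intensities of 68.5 and 75.0 in transplanted injured, 398 and 321 in untransplanted injured, 328 and 800 in uninjured muscle, and 1.67 and 28.1 in bone marrow samples. Untransplanted injured and uninjured arrays overlapped, and transplanted injured arrays lay below both. Uninjured muscle was at least 12.2-fold higher than bone marrow (adjusted p = 0.0059), a bound of 7.84-fold without uninjured muscle replicate 2 and 19.0-fold without replicate 1. The call was lost with only the 4 arrays compared (adjusted p = 0.0616). Against uninjured muscle, transplanted injured muscle fell by 2.77 on the log2 scale (SE 0.77, adjusted p = 0.0276). That fall was not called without either array of the transplanted injured group (adjusted p = 0.122 and 0.108) or without uninjured muscle replicate 2 (log2 fold change -2.13, adjusted p = 0.0785), nor without either untransplanted injured array (adjusted p = 0.0512 and 0.0513) or with a pseudocount of 1 (adjusted p = 0.0616). Actins are near-identical paralogues, so part of such a signal can come from another actin.

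Actn3, the alpha-actinin that anchors thin filaments at the Z-disc of fast fibres, had intensities of 5.25 and 6.36 in transplanted injured, 85.1 and 56.8 in untransplanted injured, 46.4 and 246 in uninjured muscle, and 5.17 and 21.7 in bone marrow samples. Both uninjured arrays exceeded the bone marrow arrays, but they differed widely from each other, and the comparison missed the threshold (adjusted p = 0.0899). Transplanted injured muscle was at least 2.65-fold lower than uninjured muscle (adjusted p = 0.014). The bound was 1.19-fold without uninjured muscle replicate 2 and 5.89-fold without replicate 1. The call was lost with values under 38.4 set to it (adjusted p = 0.145) and without either transplanted array (adjusted p = 0.0719 and 0.0629). Untransplanted injured muscle did not pass (log2 fold change -0.61, SE 0.81, adjusted p = 0.595).

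Of the genes that handle calcium, Pvalb, parvalbumin, was high in uninjured muscle samples alone. Its intensity was 30.7 and 16.1 in transplanted injured, 22.8 and 38.0 in untransplanted injured, 429 and 1119 in uninjured muscle, and 25.9 and 23.5 in bone marrow samples. All injured and bone marrow arrays were under the filter value. Uninjured muscle was at least 16.5-fold higher than bone marrow (adjusted p = 0.00228), and both injured groups were at least 16.5-fold lower than uninjured muscle (adjusted p = 0.0011 for transplanted and 0.00211 for untransplanted). Without uninjured muscle replicate 1 or 2 these bounds were 26.5-fold and 10.2-fold, and the 3 comparisons were still called.

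Atp2a1, the calcium pump of the sarcoplasmic reticulum in fast fibres, did not share this pattern. Its intensity was 47.3 and 19.4 in transplanted injured, 89.5 and 64.8 in untransplanted injured, 138 and 195 in uninjured muscle, and 245 and 162 in bone marrow samples. Bone marrow overlapped uninjured muscle (log2 fold change of uninjured muscle over bone marrow -0.28, SE 0.48, adjusted p = 0.813). Levels in transplanted injured muscle were lower than in both, with log2 fold changes of -2.28 against uninjured muscle (SE 0.48, adjusted p = 0.0098) and of -2.55 against bone marrow (SE 0.48, adjusted p = 0.00548). Without transplanted injured replicate 2 the first was -1.71 and not called (adjusted p = 0.0695).

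Ckm, the muscle creatine kinase that regenerates ATP in fibres, rested on 1 uninjured array. Its intensity was 21.4 and 27.5 in transplanted injured, 61.6 and 39.7 in untransplanted injured, 127 and 1296 in uninjured muscle, and 37.6 and 49.5 in bone marrow samples. Uninjured muscle was above the other groups on both arrays, which differed from each other more than for any other of the 10 genes. The comparison with bone marrow did not pass (log2 fold change 3.13, SE 0.91, adjusted p = 0.0963). It was called in 1 of 21 other settings, without uninjured muscle replicate 1 (log2 fold change 4.78, adjusted p = 0.000932); without replicate 2 the log2 fold change was 1.47. Against uninjured muscle, transplanted injured muscle was at least 9.74-fold lower (adjusted p = 0.015), with bounds of 30.7-fold and 3.09-fold without uninjured replicate 1 or 2, and no call without either transplanted array (adjusted p = 0.0825 and 0.067). The fall in untransplanted injured muscle (-2.95 on the log2 scale, SE 0.91, adjusted p = 0.0466) was called in 7 of 21 other settings, and the log2 fold change without uninjured muscle replicate 2 was -1.29 (adjusted p = 0.0847).

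**Figure D2:**
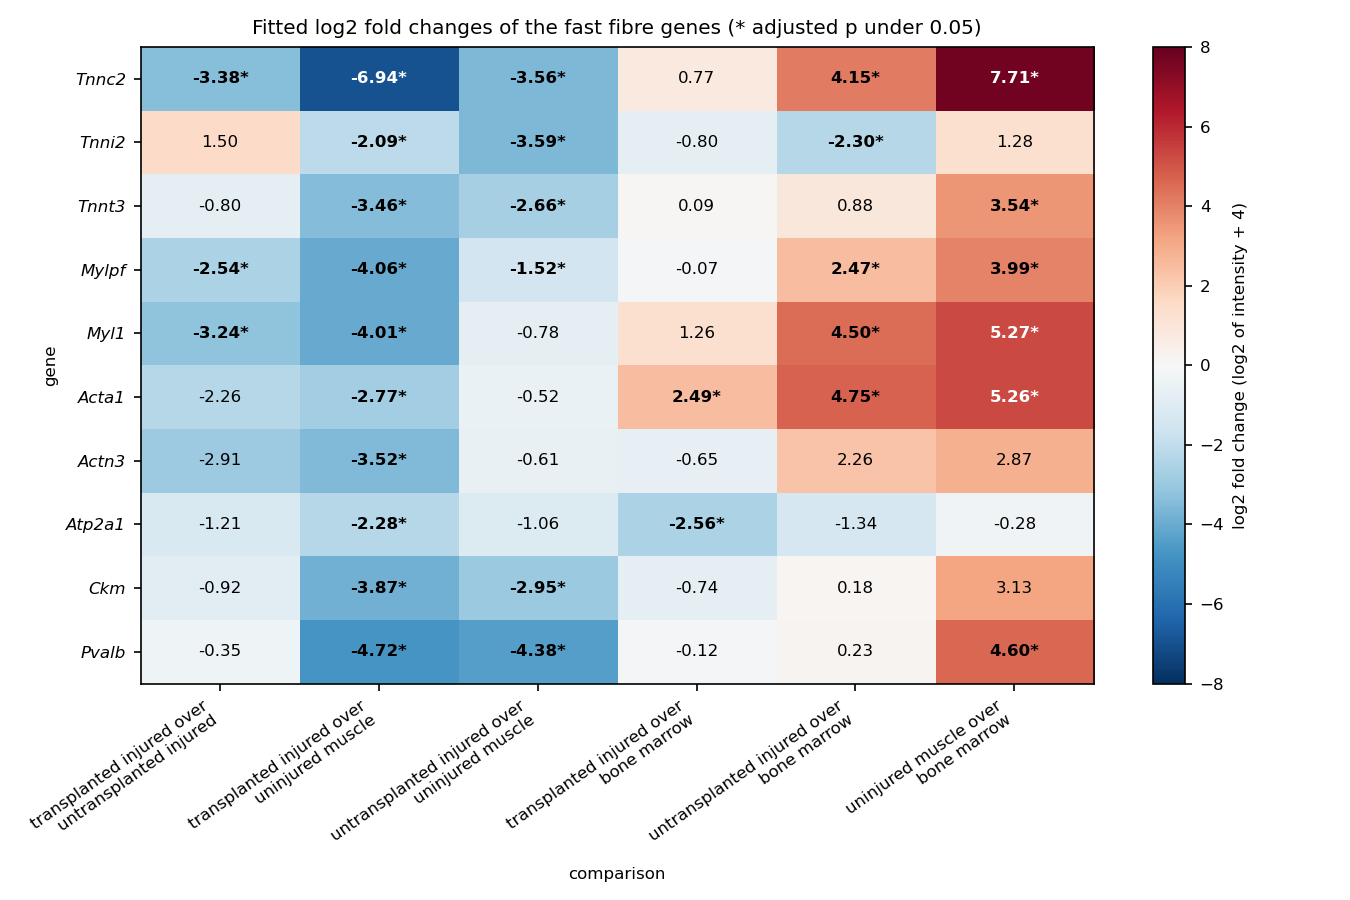
Fitted log2 fold changes (log2 of intensity plus 4) of the 10 genes in the 6 comparisons of 2 groups, first-named group over second; bold values with a star had an adjusted p under 0.05, and values against a group with both arrays under 38.4 depend on the pseudocount and are no bounds. The column of transplanted injured over uninjured muscle is called in all 10 rows, and that of transplanted over untransplanted injured muscle for Tnnc2, Mylpf and Myl1.

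Promoter sequence is shown for the 3 genes with the highest mean intensity in uninjured muscle, Tnnc2, Pvalb and Mylpf, and for Acta1, added after its values were seen because its untransplanted injured and uninjured arrays overlapped. Each is the 250 bases before the annotated start in RefSeq (GRCm38.p6), 5' to 3'. Capitals mark CANNTG, the E-box bound by MyoD family factors, TATAAA, the MEF2 consensus and the CArG box bound by serum response factor, on either strand.
Tnnc2 (chr2:164779735-164779984, minus strand): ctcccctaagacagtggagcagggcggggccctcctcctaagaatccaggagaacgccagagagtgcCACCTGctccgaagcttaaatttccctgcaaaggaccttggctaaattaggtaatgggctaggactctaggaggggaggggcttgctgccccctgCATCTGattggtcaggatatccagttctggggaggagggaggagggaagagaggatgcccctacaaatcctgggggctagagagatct
Mylpf (chr7:127211358-127211607, plus strand): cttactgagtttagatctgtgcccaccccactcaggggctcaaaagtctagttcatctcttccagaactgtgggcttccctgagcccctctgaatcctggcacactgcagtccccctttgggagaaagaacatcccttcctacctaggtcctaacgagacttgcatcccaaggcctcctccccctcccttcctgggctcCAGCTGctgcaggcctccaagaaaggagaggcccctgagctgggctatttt
Acta1 (chr8:123894776-123895025, minus strand): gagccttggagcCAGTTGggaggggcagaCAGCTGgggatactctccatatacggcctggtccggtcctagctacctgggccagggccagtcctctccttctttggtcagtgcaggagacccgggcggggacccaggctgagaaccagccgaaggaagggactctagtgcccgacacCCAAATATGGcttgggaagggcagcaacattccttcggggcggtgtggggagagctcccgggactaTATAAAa
Pvalb (chr15:78206401-78206650, minus strand): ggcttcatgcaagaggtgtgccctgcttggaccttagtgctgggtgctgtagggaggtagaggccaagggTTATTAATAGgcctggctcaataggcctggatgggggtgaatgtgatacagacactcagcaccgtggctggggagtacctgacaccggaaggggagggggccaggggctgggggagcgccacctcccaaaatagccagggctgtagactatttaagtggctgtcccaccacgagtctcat
Of the 10 genes 7 have an entry in the promoter table used; Tnni2, Tnnt3 and Actn3 do not. Each of the 7 held CANNTG in at least 1 promoter, Pvalb only in a second promoter that is not printed, and 66.2% of the 32851 promoters of all genes held it. These shares are per promoter, while the 7 genes are counted over any of their promoters. CAGCTG, an E-box form that also counts as CANNTG, was in 5 of 7 (Mylpf, Myl1, Acta1, Atp2a1 and Ckm) and in 13% of all promoters. CATTCC, the M-CAT core bound by TEAD factors, and TATAAA were each in Myl1 and Acta1, against 12.6% and 12.4% of all. The CArG box was in Acta1 alone, 73 to 64 bases before the start, against 1.47% of all, and the MEF2 consensus in the first of 2 Pvalb promoters alone, 180 to 171 bases before the start, against 2.92%. These matches are letters in a window and show no binding.

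Expressed as a share of each gene's own uninjured muscle mean, untransplanted injured samples held 63.8% for Acta1, 58.6% for Myl1, 48.5% for Actn3, 46.4% for Atp2a1 and 34.4% for Mylpf. The same samples held 15.1% for Tnnt3, 9.40% for Tnni2, 8.22% for Tnnc2 and 7.12% for Ckm, and under 4.96% for Pvalb, both of whose arrays were under the filter value. Several of these shares rest on 1 array. Against uninjured replicate 1 or 2 alone the share was 153% or 28.9% for Actn3, 110% or 44.96% for Acta1 and 39.9% or 3.91% for Ckm, while for Myl1 it was 59.5% or 57.7%. The second Tnni2 probe set held 24.9%.

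Transplanted injured samples held 22.5% for Tnni2 (23.8% on its second probe set), 20.1% for Atp2a1, 12.7% for Acta1 and 5.47% for Mylpf. For the other 6 genes both transplanted arrays were under the filter value, so the share is bounded by that value: under 2.90% for Tnnc2, 4.96% for Pvalb, 5.39% for Ckm, 11.6% for Tnnt3, 14.1% for Myl1 and 26.3% for Actn3. Against uninjured replicate 1 or 2 alone, the share was 21.9% or 8.96% for Acta1, and the bound was 82.7% or 15.6% for Actn3, 30.2% or 2.96% for Ckm and 8.94% or 3.43% for Pvalb. Acta1, Myl1, Actn3 and Atp2a1 were the 4 genes not called lower in untransplanted injured muscle (adjusted p = 0.638, 0.248, 0.595 and 0.13). Differences between genes in these shares were not tested. In bulk samples, fewer cells of a type and less RNA per cell cannot be told apart.

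**Figure D3:**
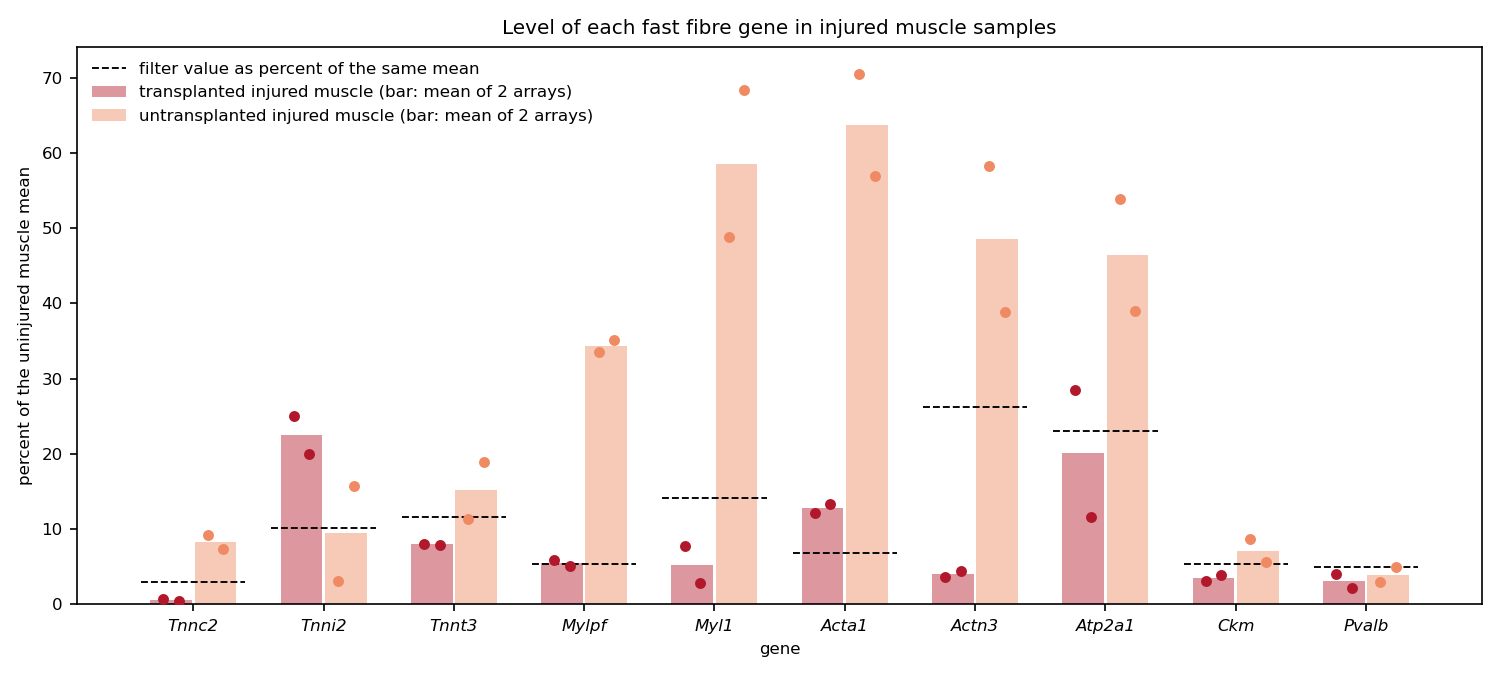
Level of each gene in injured muscle samples as percent of its uninjured muscle mean (bars: mean of 2 arrays; points: arrays), with the filter value on the same scale (dashed). Bars and points under the dashed line show the measured values, which the text gives only as bounds where both arrays are under it. Acta1 stands at 12.7% in transplanted injured samples, against 63.8% in untransplanted injured ones.

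The 2 injured groups were also compared directly. As the labels do not give the time after injury or the origin of the cells, the transplant cannot be told apart from such differences. Tnnc2, Mylpf and Myl1 were lower in transplanted injured muscle, and 8 of 10 genes had both transplanted arrays below both untransplanted ones, where 26.5% of all genes did. Tnni2 lay the other way on the probe set that stands for it, as 25.3% of all genes did, and Pvalb overlapped. Acta1 (log2 fold change -2.26, SE 0.77, adjusted p = 0.376) and Actn3 (at least 1.74-fold lower by the bound, adjusted p = 0.252) did not pass. The 3 calls depend on the fit: 0 members were called with quantile normalization, without any 1 of the 4 injured arrays or without either bone marrow array, where 4 to 6 were lower at an unadjusted p under 0.05, and without an injured array limma called 0 of 16289 probe sets (961 to 1071 at an unadjusted p under 0.05). Tnnc2 and Mylpf were each called in 13 of 21 other settings and Myl1 in 9, and the sign was negative for each of the 3 genes in all 21.

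Against bone marrow, untransplanted injured muscle was higher for 4 of 10 genes, Tnnc2, Mylpf, Myl1 and Acta1, and lower for Tnni2, where 12.6% and 17.2% of all genes were called. Tnnc2 was at least 2.65-fold higher (adjusted p = 0.00029), Myl1 at least 3.8-fold (adjusted p = 0.000506) and Acta1 at least 8.54-fold (adjusted p = 0.0032). Without overlap, 6 of 10 lay higher and 2 lower, where 29.1% and 44.1% of all genes did. Mylpf rose by 2.47 on the log2 scale (SE 0.31, adjusted p = 0.00111). Transplanted injured muscle was higher than bone marrow for 1 gene, Acta1 (at least 1.79-fold, adjusted p = 0.0393), and lower for Atp2a1, against 12% and 19.5% of all genes. Groups lay apart without overlap for 3 higher and 3 lower, where 27.9% and 44.8% of all genes did. The Acta1 call was lost in 9 of 21 other settings, over which the adjusted p ran from 0.00797 to 0.202.

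Other fibre genes were followed in a list of sarcomere, triad and metabolic genes, of which 25 of 40 were tested. Of these, 17 were lower and 1 higher in transplanted injured against uninjured muscle, 13 lower and 0 higher in untransplanted injured against uninjured muscle, and 8 higher and 2 lower in uninjured muscle against bone marrow. None of the 25 was called between the injured groups. The 3 genes named from it, those with the highest mean over the arrays, differed in pattern. Tpm2, a tropomyosin, had 71.8 ± 9.67 in transplanted injured, 348 ± 66.4 in untransplanted injured and 2042 ± 847 in uninjured muscle, and 137 ± 15.6 in bone marrow. Tpm3, a tropomyosin also made in non-muscle cells, was the one gene of the list that rose in transplanted injured over uninjured muscle (log2 fold change 0.72, adjusted p = 0.0246). Cox6a2, the muscle form of a cytochrome oxidase subunit, was highest in bone marrow, at 2163 ± 384, against 256 ± 111 in uninjured muscle. The fast myosin heavy chain Myh1, named after its values were seen, had 0.726 and 6.62 in transplanted injured, 23.9 and 1.39 in untransplanted injured, 216 and 211 in uninjured muscle, and 1.69 and 6.57 in bone marrow samples.

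Slow fibre and cardiac paralogues were mostly low. Of 14 genes 9 were tested. In these, 3 were lower in transplanted injured and 1 in untransplanted injured against uninjured muscle, 2 were higher in uninjured muscle against bone marrow, and 0 were called between the injured groups. Casq2, a calcium store protein of slow and cardiac muscle, fell in both injured groups against uninjured muscle (adjusted p = 0.00174 for transplanted and 0.0228 for untransplanted). Myl4, an embryonic and atrial light chain, fell in transplanted injured muscle (adjusted p = 0.0196), and Atp2a2, the slow and housekeeping calcium pump, was not called in any of these 4 comparisons. Tnnc1, Tnni1 and Tnnt1, the slow troponins, had group means between 2.87 and 81.1 and were called in none of these 4 comparisons, with Tnni1 not tested. Against bone marrow, 3 of the 9 tested genes were higher and 0 lower in untransplanted injured muscle. Tnnc1 was among the 3 (log2 fold change 1.725, SE 0.476, adjusted p = 0.0272).

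Genes of developing and regenerating fibres had 5 of 13 tested. Myl4 alone was lower in transplanted injured against uninjured muscle, and none was called in untransplanted injured against uninjured muscle. Myl4 is also counted among the slow fibre and cardiac genes. Its mean was highest in bone marrow, at 228 ± 66.8, against 128 ± 22.6 in uninjured muscle. In untransplanted injured muscle against bone marrow, 2 genes were higher (Chrna1 and Myog) and 1 lower (Ncam1). Chrna1, the acetylcholine receptor subunit of fibres, had 27.0 and 28.5 in transplanted injured, 106 and 106 in untransplanted injured, 50.4 and 49.3 in uninjured muscle, and 18.9 and 19.2 in bone marrow samples. For Chrna1, untransplanted injured over uninjured muscle gave a log2 fold change of 1.03 that did not pass (SE 0.37, adjusted p = 0.0761). The other tested genes of the list did not share one direction. In the same comparison Myog gave 0.56, while Myl4 gave -0.87, Myod1 -0.69 and Ncam1 -0.64. Satellite cell genes had 7 of 12 tested. Against uninjured muscle, 2 were lower in transplanted injured (Notch3 and Vcam1) and 1 in untransplanted injured muscle (Notch3). Notch3 was also the 1 gene higher in uninjured muscle against bone marrow. Cdh15, Itga7, Sdc4, Fgfr4 and Des were called in none of these comparisons. Pax7, Myf5, Pax3 and Calcr did not pass the filter.

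Markers of some other cells moved with the fibre genes. The summed intensity of the 10 fast fibre genes was 366 and 296 in transplanted injured, 1200 and 1176 in untransplanted injured, 4071 and 6694 in uninjured muscle, and 530 and 516 in bone marrow samples. The largest parts of the bone marrow sums were Atp2a1 (245 and 162) and Tnni2 (146 and 157). Smooth muscle and pericyte genes summed to 495 and 487 in transplanted injured, 1258 and 1101 in untransplanted injured, 8263 and 7599 in uninjured muscle, and 374 and 431 in bone marrow samples. They ran in the same order of injured groups below uninjured muscle, with 6 of 7 tested genes lower in transplanted and 5 of 7 in untransplanted injured muscle. Endothelial genes summed to 1262 and 1207 in transplanted injured, 1601 and 1680 in untransplanted injured, 15030 and 13750 in uninjured muscle, and 1174 and 1515 in bone marrow, with 13 and 12 of 15 lower in the injured groups.

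Fewer fibroblast than fast fibre genes were called lower in untransplanted injured against uninjured muscle, 0 of 14 against 6 of 10. Fibroblast genes summed to 5617 and 5799 in transplanted injured, 31380 and 31750 in untransplanted injured, 42490 and 12890 in uninjured muscle, and 428 and 570 in bone marrow. The untransplanted injured sums thus lay between those of the uninjured arrays, which differed widely from each other. Of 14 tested, 9 were lower and 0 higher in transplanted injured against uninjured muscle, 0 lower and 2 higher in untransplanted injured against uninjured muscle (Col5a1 and Serpinf1, named after their values were seen; adjusted p = 0.00753 and 0.0489), and 2 were lower in transplanted than in untransplanted injured muscle. The pan-leukocyte sum was higher in both injured groups than in uninjured muscle and bone marrow. It was 62310 and 59750 in transplanted and 56370 and 58780 in untransplanted injured muscle. Uninjured muscle had 25900 and 30290, and bone marrow 29880 and 32650. Of its genes, 5 of 9 were higher in each injured group against uninjured muscle, and they did not move alike. In transplanted and untransplanted injured muscle, Fcer1g rose by 2.92 and 2.68 and Tyrobp by 1.48 and 1.58 on the log2 scale. Ptprc (0.06 and 0.20) and Laptm5 (0.11 and 0.06) were not called. Erythroid genes had 1 of 5 lower in transplanted injured and 0 in untransplanted injured against uninjured muscle. For transplanted over untransplanted injured muscle, the median log2 fold change was -2.51 for fibroblast genes and -1.74 for the fast fibre genes. It was -0.98 for smooth muscle and pericyte genes and -0.64 for endothelial genes. The lists closest to the fast fibre genes differed from them and from each other. The median was -0.198 for the 25 other fibre genes tested, -0.205 for slow fibre and cardiac genes and -0.471 for satellite cell genes. It was -1.51 for the 5 tested genes of developing and regenerating fibres. The part of these other cell types in the fibre gene results was not tested.

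**Figure D4:**
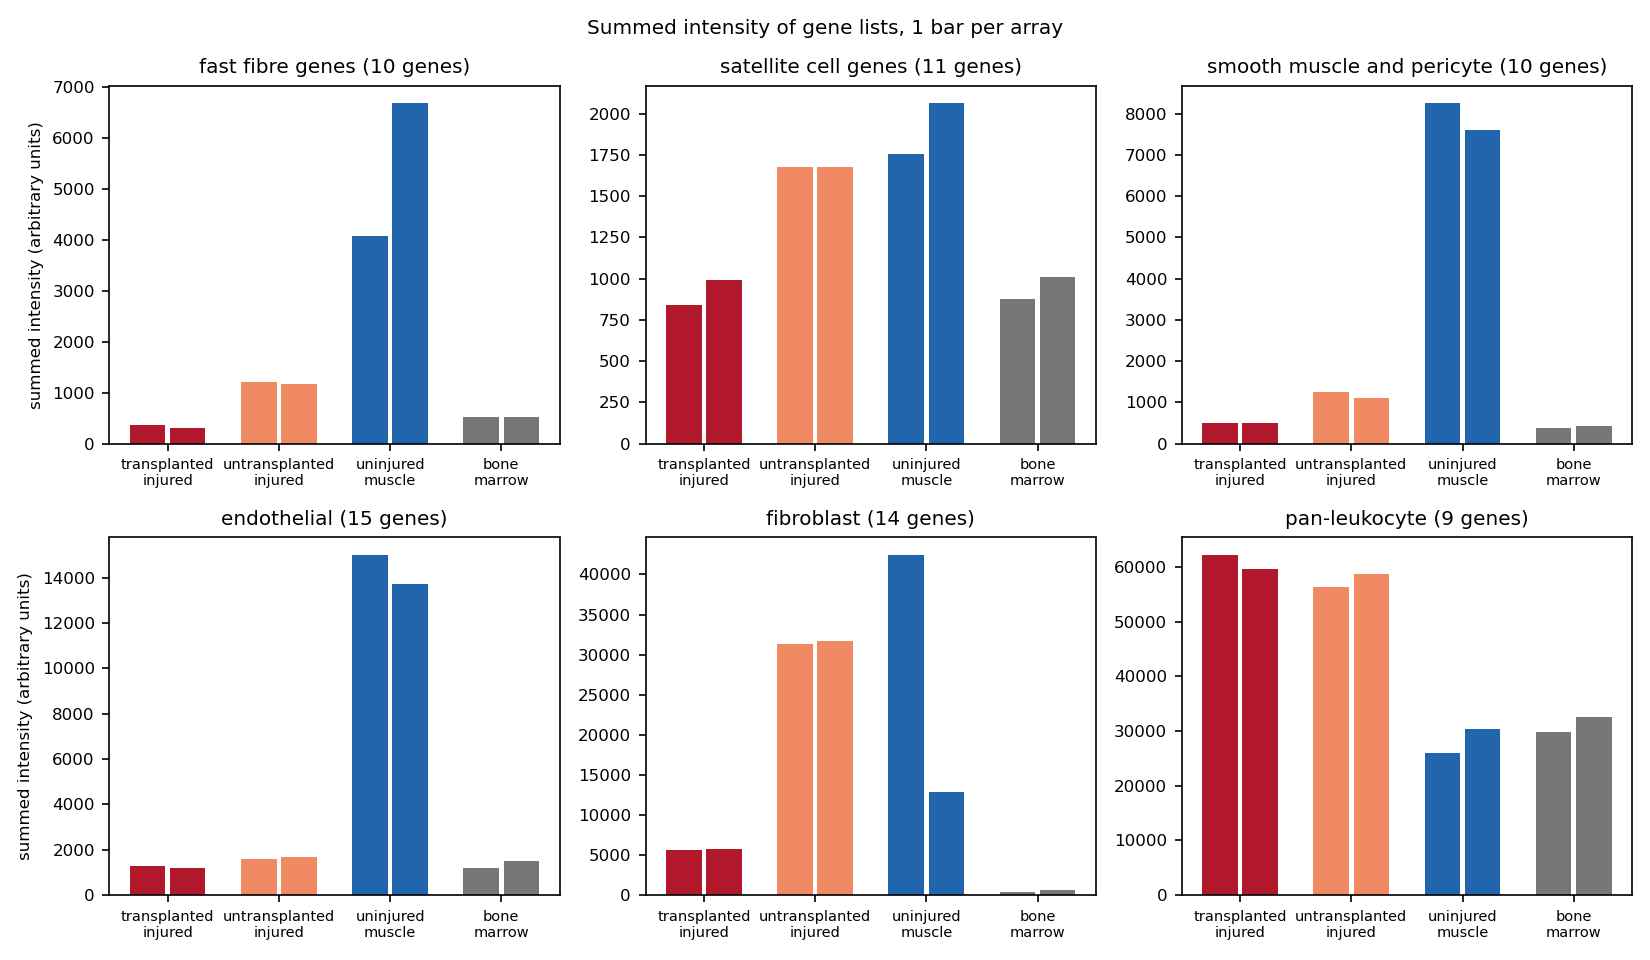
Summed intensity (arbitrary units) of 6 gene lists, 1 bar per array, in transplanted injured, untransplanted injured, uninjured muscle and bone marrow samples. Fast fibre, smooth muscle and endothelial sums are highest on both uninjured muscle arrays, and the pan-leukocyte sum is highest on the 4 injured arrays.

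The 10 genes also differed in how closely they followed one another. Across the 8 arrays, Pearson's r of a gene with the mean of the other 9 was 0.966 for Tnnt3, 0.965 for Tnnc2, 0.964 for Mylpf and 0.904 for Pvalb, from 0.746 to 0.855 for Myl1, Actn3, Ckm and Acta1, and 0.333 for Tnni2 and 0.325 for Atp2a1. Arrays of a group share their origin, so these values describe the group pattern. The 8 genes whose profile was most like the mean of the 10, among 9496 other tested genes, had r from 0.98 to 0.992. They were Maff, a stress-induced transcription factor, Selp, an adhesion protein of platelets and endothelium, Aqp1, a water channel, Icam1, a leukocyte adhesion ligand, Acta2, smooth muscle actin, Myh4, the fastest myosin heavy chain, Podxl, a surface sialomucin of endothelium, and Tnxb, a matrix protein. Myh4 had 2.77 and 3.50 in transplanted injured, 15.8 and 16.6 in untransplanted injured, 226 and 263 in uninjured muscle, and 1.96 and 2.16 in bone marrow samples. Maff had 157 and 144 in transplanted injured, 330 and 296 in untransplanted injured, 572 and 921 in uninjured muscle, and 157 and 199 in bone marrow samples.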

How the data were processed

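Affymetrix mouse 430A arrays held RNA of 8 samples in 4 groups of 2, prepared from 1 µg of total RNA per the labels. The deposited values are linear intensities, scaled by the authors so that each array's mean without the lowest and highest 2% of probe sets is about 250.1 (checked: 250.09 to 250.12). The submitters' processing notes name GCOS; how probes were summarised and background was handled was not given in these notes. Of 22690 probe sets, 64 controls were left out; 20380 had 1 gene, 691 several and 1555 none, and symbols were updated through RefSeq gene identifiers. Tests ran on log2(value + 4), after raising values below 1 to 1, with 4 the 10th percentile of all values. The 16289 probe sets with at least 2 arrays at or above 38.4 were tested. A gene is represented by its probe set of highest mean, and fold changes of low genes are understated by the pseudocount.

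Tests used limma 3.58.1 (R 4.3.3), fitting a mean for each group to all 8 arrays together (4 residual degrees of freedom), an intensity trend, two-sided tests and Benjamini-Hochberg adjustment over all tested probe sets, with a threshold of 0.05. Standard errors of log2 fold changes had a median of 0.45, limited by the few arrays. If neither array of the group with less signal reached 38.4, the fold is given as "at least", and the share of uninjured muscle as under the share that 38.4 makes. The bounds and shares against each uninjured array alone were added after seeing the data. The members and the 9 other lists were chosen with earlier results of these data known. Some genes, such as Myl4 and Des, are in several lists. Besides the members, the text names the 3 genes with the highest mean of a list where it describes them and the 8 most like the members; Myh1, the slow troponins and the genes of lists named otherwise were chosen after their values were seen. Alternatives covered normalization, pseudocount, filter, floor, variance model, arrays in the fit, replicate block and each array left out. Protein sequences were not used here.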

Additional observations from a re-analysis of the deposited data

How the results depend on the processing

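Of 32 calls of single genes, each tried under up to 21 other settings, 595 of 671 values were called again in the same direction, 76 kept the direction without a call and 0 reversed. With transplanted over untransplanted injured muscle, the 3 genes lower became 0 with quantile normalization, 1 with the replicate block, and 5 with array weights or with only the 4 arrays compared. Leaving out 1 array gave 0 to 3. For transplanted injured over uninjured muscle the 10 lower became 5 to 9 with 1 array left out (6 without transplanted injured replicate 1 and 5 without replicate 2). For untransplanted injured muscle over bone marrow the 1 gene lower became 2 with a larger pseudocount (the 25th percentile of all values, or their median), with low values set to 38.4 or with only the 4 arrays compared, and 0 to 2 with 1 array left out. For transplanted injured muscle over bone marrow the 1 gene higher became 2 with a pseudocount of 1, and 0 with the pseudocount at the median, no filter, low values set to 38.4 or no intensity trend, and 0 to 1 with 1 array left out. The cause was not tested, beyond that fits without an array have fewer arrays. The labels link same-numbered arrays of different groups by number only. Deviations of same-numbered arrays correlated at 0.313 for uninjured muscle and bone marrow and from -0.032 to 0.003 for the other pairs of groups. In uninjured muscle and bone marrow, replicate 1 also had the higher Gapdh ratio (46.9 against 13.6, and 24.4 against 10.7). The source of that correlation was not tested. Over all probe sets, the share of calls that were higher between the injured groups was 9.76% (4 higher, 37 lower). It was 22.2% with quantile normalization (2 and 7), 21% with array weights (170 and 641) and 32.8% with only the 4 arrays compared (369 and 756). Actn3 was not tested with the filter at the 60th percentile.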
